A study of Mus musculus with 6 samples.

Results

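The miR-26 family consists, in the mouse, of the mature arms of 3 hairpins, mir-26a-1, mir-26a-2 and mir-26b. Its 5 mature miRNAs, mmu-miR-26a-5p, mmu-miR-26b-5p, mmu-miR-26a-2-3p, mmu-miR-26b-3p and mmu-miR-26a-1-3p (the prefix mmu, for mouse, is left out below), were taken by name from 911 mature miRNA references in small RNA counts of cultured macrophages. All 5 were read in at least 3 of the 6 libraries, none of them in a joint entry with another miRNA, and no reads were listed on their stem-loop references. The libraries came from bone-marrow-derived macrophages, which are marrow cells grown into macrophages in culture, of 3 ApoE-KO (EKO) and 3 Wildtype (WT) cultures that the design text calls biological replicates. ApoE, or apolipoprotein E, carries cholesterol and other lipids out of macrophages, and the study asked which macrophage miRNAs differ in its absence. All donors were male mice of 6 to 12 weeks, and in both genotypes the cells were grown in DMEM with 10% serum and given recombinant mouse M-CSF, the macrophage growth factor, at 25 ng/mL every 2 days for 6 days. The strain, the kind of ApoE allele and whether marrow of several animals was pooled are not stated in the labels. Apoe transcripts are not counted in these tables, so no value checks the genotype labels.

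MicroRNAs are cut from hairpin transcripts as a pair of strands, of which the guide is loaded into an Argonaute protein and the passenger is mostly degraded. The guide pairs through its seed, bases 2 to 8, with target transcripts and lowers their translation and stability. The 3 miR-26 hairpins lie within genes of the Ctdsp family, which encode small phosphatases of the RNA polymerase II tail, and both guides come from the 5p side. Known targets of miR-26 include Ezh2, the Polycomb histone methyltransferase, and the cholesterol exporter Abca1, and the Myc transcription factor is known to lower miR-26 expression. In macrophages miR-26 has been described as a brake on cholesterol efflux that liver X receptors release. None of these targets is measured here.

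The sequences below show which strands share a seed, and hence a set of possible targets. They are the RefSeq mature sequences (GRCm38.p6), written 5′ to 3′ with the seed in capitals.
mmu-miR-26a-5p: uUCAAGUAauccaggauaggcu
mmu-miR-26b-5p: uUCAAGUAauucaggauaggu
mmu-miR-26a-1-3p: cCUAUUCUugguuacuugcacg
mmu-miR-26a-2-3p: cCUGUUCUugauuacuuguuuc
mmu-miR-26b-3p: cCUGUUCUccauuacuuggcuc

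The guides miR-26a-5p and miR-26b-5p carry the same seed, UCAAGUA, which no other of the 1679 mature mouse miRNAs in the RefSeq table has. Counted from the 5′ end of miR-26a-5p, they differ by the substitutions C11U and C21U, and miR-26b-5p, at 21 bases, ends 1 base earlier. Apart from these positions and the last base, reads of the guides are alike. The passengers miR-26a-2-3p and miR-26b-3p share another seed, CUGUUCU, and miR-26a-1-3p has its own, CUAUUCU. From miR-26a-1-3p to miR-26a-2-3p the seed change is A4G, counted from the 5′ end. GC content was 33.3% in miR-26b-5p, 40.9% in miR-26a-5p, 36.4% in miR-26a-2-3p, 45.5% in miR-26a-1-3p and 50.0% in miR-26b-3p.

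The hairpins, from the same table, show from which locus each strand can come, with the mature arms in capitals.
mir-26a-1: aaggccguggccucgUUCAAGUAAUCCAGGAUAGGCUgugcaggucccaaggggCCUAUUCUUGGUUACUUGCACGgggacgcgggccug
mir-26a-2: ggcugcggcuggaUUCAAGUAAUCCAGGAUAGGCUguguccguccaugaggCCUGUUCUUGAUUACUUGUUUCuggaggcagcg
mir-26b: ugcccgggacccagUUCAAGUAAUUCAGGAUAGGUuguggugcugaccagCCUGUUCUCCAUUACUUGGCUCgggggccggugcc

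In the GRCm38.p6 build, mir-26a-1 lies at chr9:119031796-119031885 on the plus strand, in intron 5 of an 8-exon transcript of Ctdspl (GENCODE M21). The mir-26a-2 hairpin lies at chr10:126995530-126995613, plus strand, in intron 5 of an 8-exon transcript of Ctdsp2. Its last base also overlaps, by 1 base, an exon of 2 shorter Ctdsp2 transcripts of 3 exons each. The mir-26b hairpin lies at chr1:74394310-74394394, plus strand, in intron 4 of a 7-exon transcript of Ctdsp1. The annotation thus places all 3 hairpins in Ctdsp introns, on the strand of the host gene. The arm miR-26a-5p is identical in mir-26a-1 and mir-26a-2, so its reads cannot be assigned to Ctdspl or Ctdsp2, whereas each 3p arm has the sequence of 1 hairpin.

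The libraries held 34651516 to 41331600 reads on mature miRNAs. Levels below are CPM, the reads of a miRNA scaled to 1000000 reads on mature miRNAs in its library. The 6 macrophage and myeloid marker miRNAs (miR-21a-5p, both miR-142a arms, miR-223-3p, miR-146a-5p and miR-511-3p) were all read. They summed to between 140400 and 168500 CPM in EKO and between 213600 and 226600 CPM in WT, nearly all of it miR-21a-5p. The macrophage-resident miR-511-3p was at 0 in EKO replicates 1 and 2 and at most 1.37 CPM elsewhere. Stromal markers (5 of 5 read) summed to 77.5 to 118 CPM in EKO and 183 to 225 CPM in WT. Most of the sum was miR-143-3p, at 115, 77.4 and 73.8 CPM in EKO and 184.7, 210.7 and 165 CPM in WT. Both miR-199a entries were also lower in every EKO library, while miR-214-3p overlapped with its higher values in EKO. The stromal marker miR-145a-5p was at 0 in all libraries but WT replicate 2. Lymphoid markers (3 of 3 read) summed to 489 to 592 CPM in EKO and 685 to 801 CPM in WT. The sum of the granulocyte markers (2 of 2 read) went the other way, with 2900 to 3143 CPM over the EKO and 2355 to 2507 CPM over the WT libraries. These markers are the 2 arms of mir-223, and they parted. The 5p arm was higher in EKO, at 2673, 2880 and 2731 CPM against 2162, 2006 and 1959 CPM in WT. The 3p arm, also in the macrophage list, was lower, at 226.9, 263.5 and 281.1 CPM against 345.5, 349.1 and 519.7 CPM. Megakaryocyte or endothelial markers (2 of 2 read) summed to 64.6 to 73.1 CPM for EKO and 76.3 to 79.9 CPM for WT. Erythroid markers (3 of 5 read, 117 to 145 against 127 to 160 CPM) and epithelial markers (6 of 6 read, 115 to 174 against 140 to 157 CPM) overlapped between the genotypes. The part of these cells in the results below was not tested. In bulk libraries, fewer cells of a type and less RNA per cell cannot be told apart.

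The family was carried by its guides. Together the 5 miRNAs took 0.425%, 0.550% and 0.778% of the reads in EKO replicates 1, 2 and 3, and 0.875%, 0.871% and 1.16% in the WT replicates. The share was 0.584% ± 0.179 (SD, n = 3) in EKO and 0.969% ± 0.165 (SD, n = 3) in WT, and the highest EKO library lay below the lowest WT library. Of the family's reads, miR-26a-5p held 84.0% to 88.4%, miR-26b-5p 11.4% to 15.9%, and the 3p arms together 0.0662% to 0.177%. By the mean over the 6 libraries, miR-26a-5p ranked 18 and miR-26b-5p 53 among all mature references, and the ranges of the guides did not overlap. The 3p arms stood far lower, with mean levels of 6.78 CPM for miR-26a-2-3p, 2.09 for miR-26b-3p and 0.691 for miR-26a-1-3p. Neighbours among these 3 overlapped in their ranges. Small RNA cloning captures some sequences better than others, so a difference in level between miRNAs is one of reads and not of molecules.

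**Figure D1:**
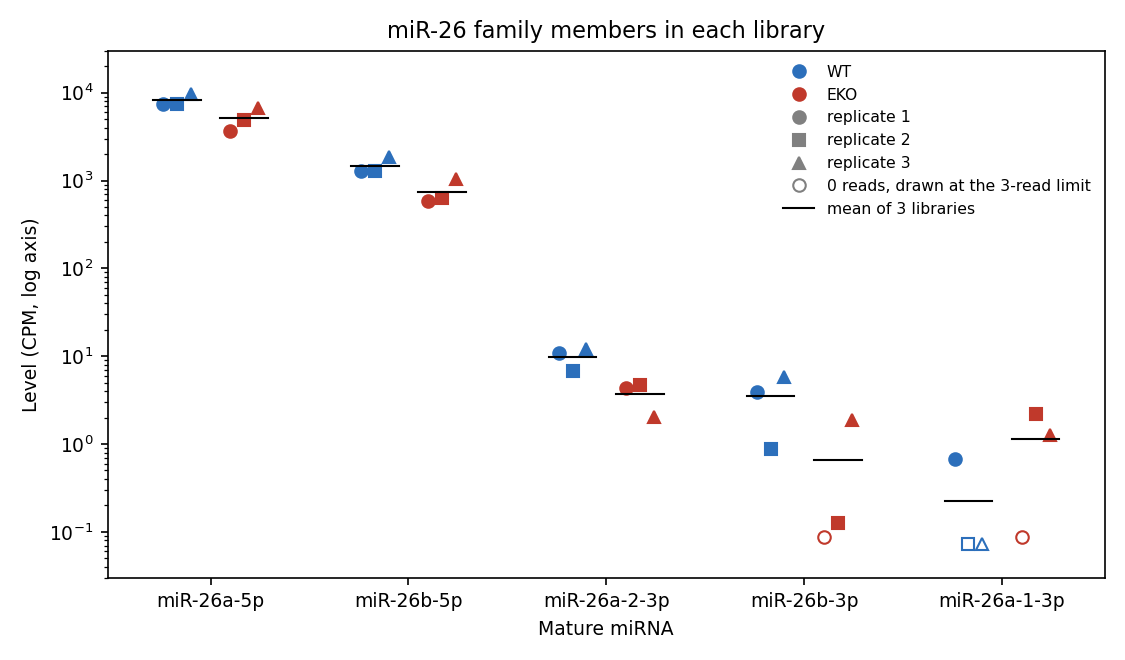
Level of each miR-26 member (CPM, log axis) in the 3 WT and 3 EKO libraries; symbols mark replicate numbers, lines the mean of 3 libraries, and open symbols libraries with 0 reads, drawn at the limit that 3 reads would give. The EKO values of miR-26a-5p, miR-26b-5p and miR-26a-2-3p all lie below the WT values, and the other 2 members overlap.

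The guide miR-26a-5p, the best-read member, stood lower in every EKO library than in any WT library. It was read at 3667, 4859 and 6746 CPM in EKO replicates 1, 2 and 3, while the WT replicates stood at 7456, 7419 and 9734 CPM. The highest EKO library, replicate 3, came within 673 CPM of the lowest WT library, replicate 2, and the spread within a genotype was wide. Counting error was small beside it: 127082 reads in EKO replicate 1 gave an exact 95% binomial interval of 3647 to 3688 CPM, which covers counting error only, since PCR copies were not removed. The EKO mean was 5091 ± 1553 CPM against a WT mean of 8203 ± 1326 (SD, n = 3 each), 1.61-fold higher in WT. The log2 fold change, EKO over WT, was -0.67 ± 0.19 (SE), which did not pass over all miRNAs (adjusted p = 0.0965, edgeR quasi-likelihood test).

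The guide miR-26b-5p, which has the same seed, showed the larger difference. EKO replicates 1, 2 and 3 stood at 580, 628 and 1029 CPM, and the WT replicates at 1283, 1285 and 1840 CPM. The genotypes did not overlap, and replicate 3 was again the highest of each genotype. The EKO mean was 746 ± 247 CPM and the WT mean 1469 ± 322 (SD, n = 3 each), 1.97-fold higher in WT. The log2 fold change was -0.95 ± 0.22 (SE), and it did not pass either (adjusted p = 0.0767, edgeR).

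All 5 members were kept by the low-count filter. None of the 5 passed an adjusted p of 0.05, nor did any of the 575 tested miRNAs (0.0%, edgeR), of which 123 (21.4%) had an unadjusted p under 0.05, and DESeq2 called 92 and limma-voom 32. At an unadjusted p under 0.05, 3 of the 5 members were lower in EKO, where 13.0% of all tested miRNAs were. For 3 of the 5, all EKO values lay below all WT values, where 17.7% of all tested miRNAs did (29.6% counting either direction). Among the miRNAs averaging at least 10 CPM, to which the 2 guides belong, that share was 22.7%. The guides share most of their sequence, and their levels correlated over the 6 libraries (Pearson r = 0.977). Whether they vary independently of each other was not tested, so they are not to be counted as 2 separate results. Over all 575 the median log2 fold change was -0.16 (-0.08 with DESeq2 size factors), and 26.4% had a lower value than miR-26a-5p and 17.4% a lower value than miR-26b-5p.

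**Figure D2:**
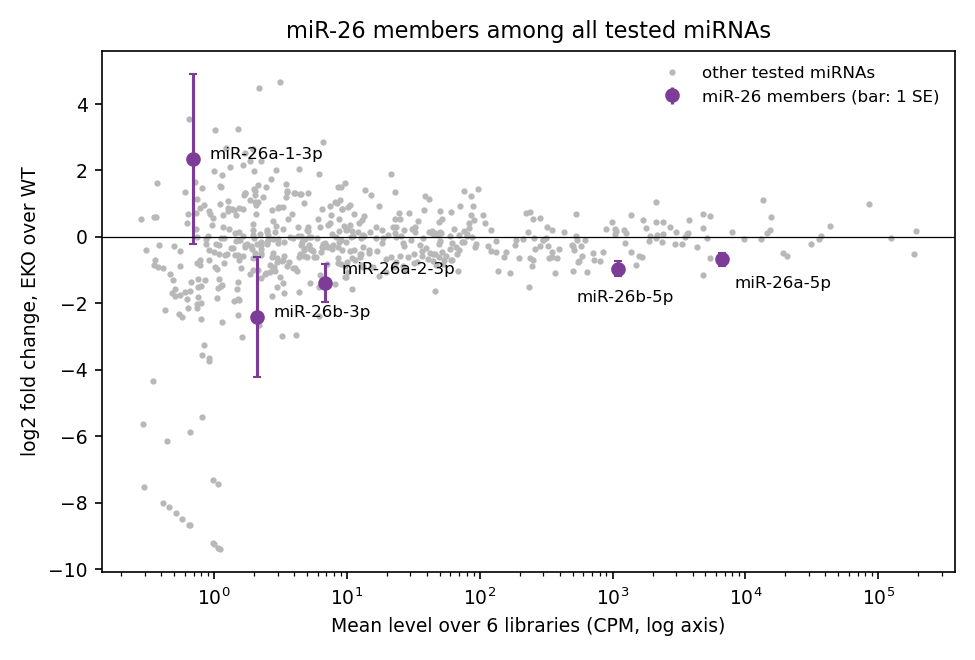
Log2 fold change (EKO over WT) against mean level (CPM, log axis) for the 575 tested miRNAs, with the 5 miR-26 members in purple and bars of 1 SE. Both guides lie below 0 with short bars, while the bar of miR-26a-1-3p crosses 0 and that of miR-26b-3p does not but is nearly as long as its distance from 0.

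The call on the guides depended on the tool and the filter. With DESeq2, miR-26a-5p (adjusted p = 0.0241) and miR-26b-5p (adjusted p = 0.00141) both fell, as 8.52% of tested miRNAs did. With limma-voom miR-26b-5p passed (adjusted p = 0.0410) and miR-26a-5p did not (adjusted p = 0.0524), against 4.0% of miRNAs lower. Without the low-count filter both passed (adjusted p = 0.0154 and 0.00170, edgeR), where 3.08% of 910 miRNAs passed lower. When only the 251 miRNAs averaging at least 10 CPM were fitted with edgeR, both passed, at adjusted p of 0.0403 and 0.0231, and 12.7% of those miRNAs passed lower. In that fit neither guide passed once either of EKO replicates 1 and 2 or any WT library was left out (adjusted p from 0.0563 to 0.151, edgeR). Without EKO replicate 3, the EKO library nearest to WT, both passed in the full fit (log2 fold change -0.90 and -1.23, adjusted p = 0.0277 each, edgeR). In every setting run, both guides had a negative log2 fold change, from -0.90 to -0.35 for miR-26a-5p and from -1.23 to -0.48 for miR-26b-5p.

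**Figure D3:**
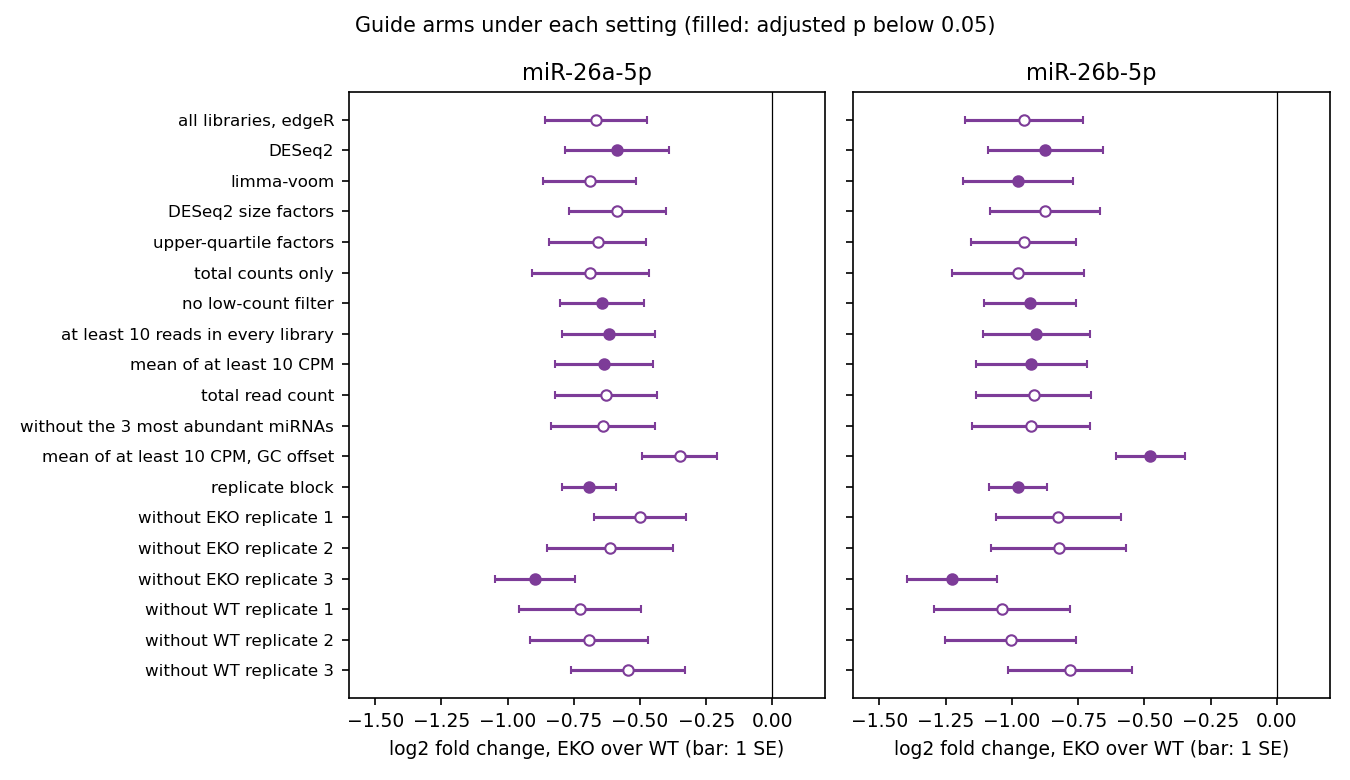
Log2 fold change (EKO over WT) of miR-26a-5p and miR-26b-5p with bars of 1 SE in the fit of all libraries and under 18 alternative settings; filled symbols mark an adjusted p below 0.05. All values lie below 0, miR-26a-5p passed in 6 and miR-26b-5p in 8 of the 18, and the smallest differences come with the GC offset.

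A property of the libraries moved with the guides. The number of distinct read sequences on all other miRNAs was 47763, 53445 and 56896 in EKO replicates 1 to 3 and 61766, 61658 and 66499 in the WT replicates. This number, called library diversity below, was not corrected for the number of reads. Reads per distinct sequence overlapped, at 722, 735.2 and 647.2 in EKO and 617.6, 664.8 and 610.5 in WT. The miRNAs detected numbered 543, 577 and 591 in EKO and 686, 668 and 698 in WT. Counted over all miRNAs, the number of distinct sequences put the 6 libraries in exactly the order of their miR-26a-5p level. For miR-26b-5p the order differed only between WT replicates 1 and 2, whose levels were 1283 and 1285 CPM. Of all tested miRNAs 3.30% followed that order exactly, as did 6.77% of those averaging at least 10 CPM. The distinct sequences of miR-26a-5p itself numbered 329, 438 and 481 in EKO and 552, 596 and 626 in WT. Those of miR-26b-5p numbered 178, 197 and 261, and 290, 296 and 336. The part of library diversity in the difference between genotypes was not tested.

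**Figure D4:**
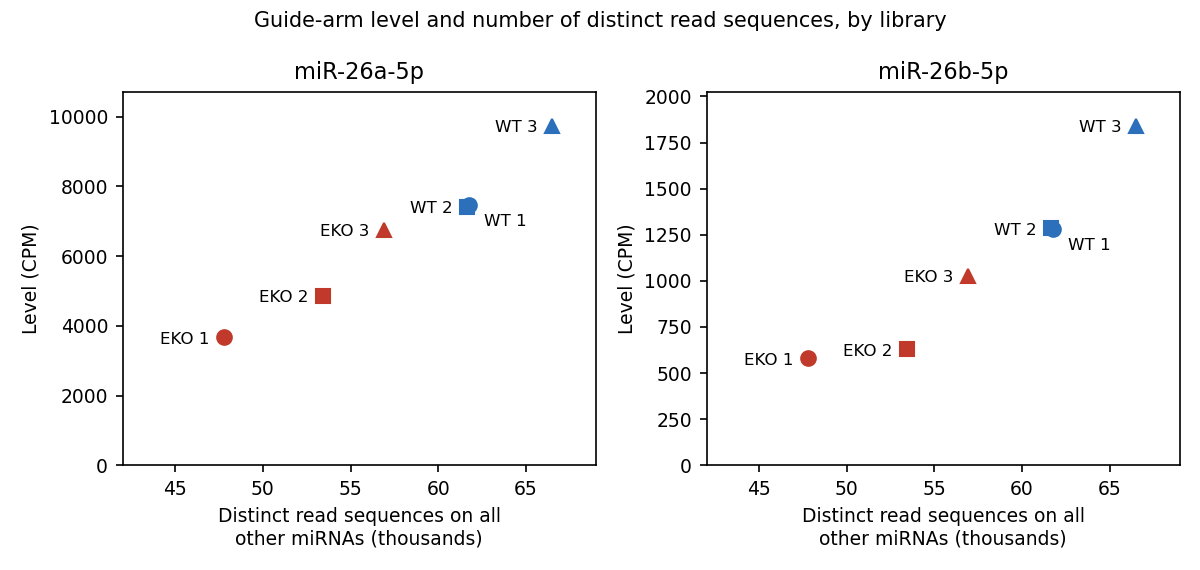
Level (CPM) of miR-26a-5p (left) and miR-26b-5p (right) against the number of distinct read sequences on all other miRNAs, 1 symbol per library, EKO in red and WT in blue. EKO replicate 1 has the fewest sequences and the lowest levels, and WT replicate 3 the most sequences and the highest levels.

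GC content moved with the fold change as well. Among the 221 (of 251) miRNAs averaging at least 10 CPM with a RefSeq sequence, divided by GC content into 3 groups of near-equal size, the median log2 fold change was -0.38 in the low, -0.03 in the middle and 0.14 in the high group. Both guides belong to the low group, which spans 27.3% to 45.5% GC. There, 26 of 74 miRNAs had all EKO values below all WT values, against 9 of 74 in the high group. An offset for the trend with GC content within each library, in the fit of those 251 miRNAs, moved their median log2 fold change from -0.03 to 0.09. With it, miR-26a-5p went from a log2 fold change of -0.64 ± 0.18 to -0.35 ± 0.14 (SE), which no longer passed (adjusted p = 0.105, edgeR). That of miR-26b-5p went from -0.93 ± 0.21 to -0.48 ± 0.13, which passed (adjusted p = 0.0335, edgeR), with 5.98% of the miRNAs lower.

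**Figure D5:**
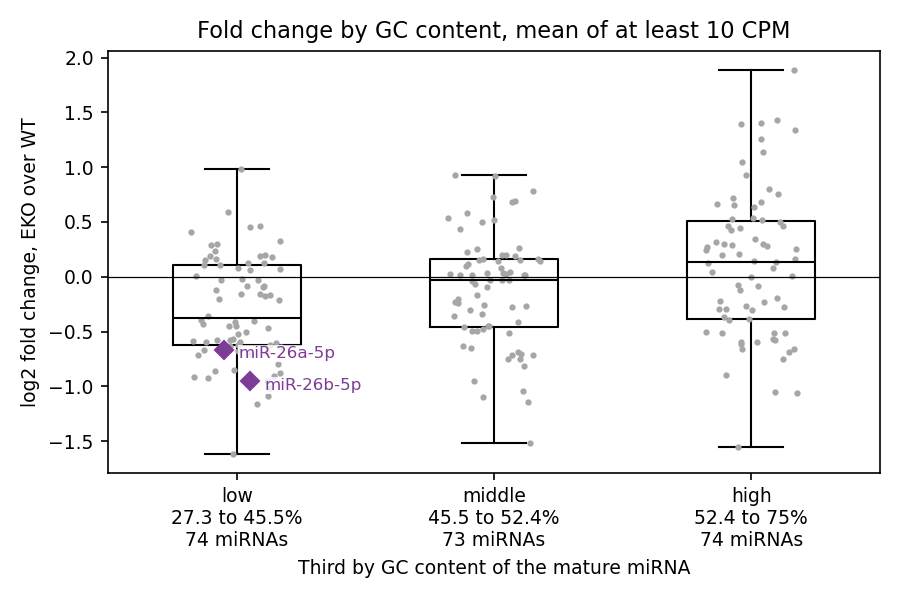
Log2 fold change (EKO over WT) of 221 miRNAs averaging at least 10 CPM, in 3 groups by GC content of the mature sequence (low, middle, high); boxes show quartiles and median, whiskers the full range, and grey points single miRNAs. Both guides, in purple, lie in the low group, whose median is -0.38, and below that median.

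The balance of the guides did not overlap between the genotypes. The ratio of miR-26a-5p to miR-26b-5p reads was 6.32, 7.73 and 6.56 in EKO replicates 1, 2 and 3 and 5.81, 5.78 and 5.29 in the WT replicates. Every EKO library had a higher ratio than every WT library, and no scaling between libraries enters such a ratio. Non-overlap was common for ratios within a library: the 5p to 3p ratios of 35.4% of 79 other hairpins did not overlap, counting either direction. No such share was computed for ratios between miRNAs of different hairpins. On the log2 scale the EKO libraries averaged 2.78 ± 0.155 and the WT libraries 2.49 ± 0.0761 (SD, n = 3 each). The difference of 0.28 had a two-sided exact permutation p of 0.1, the smallest that 3 against 3 libraries allow. Some reads match both guides. Both guides lost the same number of reads in the division of shared reads, 127 each in EKO replicate 1, which amounts to 254 shared reads there and 901 in WT replicate 3. These were 0.135% to 0.190% of all reads on the guides. With every shared read counted for both, the difference was again 0.28. The guides also differ in GC content, and with the GC offset their log2 fold changes, -0.35 and -0.48, lay closer together than the -0.64 and -0.93 without it.

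The passenger miR-26a-2-3p, from the Ctdsp2 intron, was the best read of the 3p arms. EKO replicates 1, 2 and 3 stood at 4.30, 4.76 and 2.02 CPM against 10.8, 6.75 and 12.1 CPM in the WT replicates, from 75 to 493 reads and 3 to 26 distinct sequences per library. The genotypes did not overlap. Unlike for the guides, EKO replicate 3 was the lowest library. The log2 fold change was -1.37 ± 0.57 (SE, adjusted p = 0.213, edgeR), and over 16 alternatives it ranged from -1.56 to -1.06.

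The passenger miR-26b-3p, from the Ctdsp1 intron, had 0, 5 and 69 reads in EKO and 152, 36 and 235 in WT, or 0, 0.127 and 1.86 CPM and 3.95, 0.871 and 5.74 CPM. By counting error only, the 0 of EKO replicate 1 allows a level of up to 0.0866 CPM (3 reads). PCR copies were not removed, so the true limit can be higher. The 5 reads of EKO replicate 2 were all of 1 sequence, and the 69 of EKO replicate 3 of 5 sequences. EKO replicate 3 lay above WT replicate 2, so the genotypes overlapped. The log2 fold change, -2.40 ± 1.80 (SE) with an adjusted p of 0.586 (edgeR), had an error close to its own size, and it ranged from -5.68 (without EKO replicate 3) to -1.80 (without EKO replicate 1).

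The passenger miR-26a-1-3p, from the Ctdspl intron, was close to the detection limit. It had 0, 87 and 47 reads in EKO and 26, 0 and 0 in WT, or 0, 2.20 and 1.27 CPM and 0.676, 0 and 0 CPM. By counting error only, with PCR copies not removed, the libraries at 0 allow up to 0.0866 CPM in EKO replicate 1. The same limit is 0.0726 CPM in WT replicate 2 and 0.0733 in WT replicate 3. It was the only member with a positive log2 fold change, 2.33 ± 2.56 (SE, adjusted p = 0.756, edgeR), which its error exceeds, and it was 8.46 without WT replicate 1, the only WT library with reads. No more than 7 distinct sequences were read in any library. Within mir-26a, the Ctdsp2-derived 3p arm was the more abundant in all 6 libraries.

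Both precursors were read almost only from the 5p side. For each read on the 3p arms of mir-26a there were 853, 699 and 2051 reads of miR-26a-5p in EKO and 649, 1099 and 808 in WT. The log2 ratio averaged 10.1 ± 0.827 over the EKO and 9.70 ± 0.382 over the WT libraries (SD, n = 3 each), giving a difference of 0.36 within the spread between libraries (two-sided exact permutation p = 0.6). It turned to -0.11 without EKO replicate 3. For mir-26b the ratio of 5p to 3p reads was 4967 and 553 in EKO replicates 2 and 3, with no ratio in replicate 1, and 324, 1475 and 320 in WT. The log2 difference was 1.63 over 2 EKO and 3 WT libraries (two-sided exact permutation p = 0.4, the smallest possible being 0.2). It was 0.05 without EKO replicate 2. Leaving out EKO replicate 3 or WT replicate 2 instead gave 3.21 and 2.36. With 0.5 added to each count, which gives EKO replicate 1 a ratio too, it was 3.12 (two-sided exact permutation p = 0.2). The 3p arm made up 0.0201% of the mir-26b reads in EKO replicate 2 (exact 95% interval 0.00654% to 0.0470%, counting error only) and 0.311% in WT replicate 3 (0.273% to 0.353%). Over 79 other hairpins with both arms read in every library, the median ratio of the major to the minor arm was 9.96, and 5 had a larger ratio than mir-26a. The arm ratios of 35.4% of those hairpins did not overlap between the genotypes, and those of both miR-26 precursors did.

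The miRNAs whose levels followed the guides most closely over the 6 libraries were named from the Pearson correlation of log2 TMM-scaled CPM. Only miRNAs averaging at least 10 CPM were compared. Nearest to miR-26a-5p were let-7g-5p (r = 0.997, n = 6), a member of the let-7 differentiation family, then miR-20a-5p (r = 0.991) of the miR-17-92 cluster and miR-186-5p (r = 0.991), from an intron of Zranb2. For let-7g-5p the EKO replicates stood at 12690, 15870 and 20300 CPM and the WT replicates at 23450, 22280 and 28570 CPM. Nearest to miR-26b-5p were miR-140-5p (r = 0.997), of the Wwp2 intron, miR-340-5p (r = 0.997), of the Rnf130 intron, and miR-142a-5p (r = 0.995), of blood cells. For miR-340-5p they stood at 827, 967 and 1400 CPM and at 1683, 1744 and 2413 CPM. The other guide was only 13th nearest in each case (r = 0.977). Correlations over these 6 libraries contain the difference between genotypes and that in library diversity, and 23 of 250 miRNAs exceeded an r of 0.95 with miR-26a-5p and 25 of 250 with miR-26b-5p.

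Other miRNAs tied to the same biology were described by list, with miR-26 itself left out. Of 18 tested miRNAs described as lowered by Myc, as miR-26 is, none passed with edgeR (9 had an unadjusted p under 0.05, all lower), 5 with DESeq2 and 2 with limma-voom. Over all 575 tested miRNAs, 123 (21.4%) had an unadjusted p under 0.05 (edgeR), DESeq2 called 92 and limma-voom 32. The list counts here and below are to be read against these, which count both directions. All calls in this list were lower. Counted lower only, 75 of the 575 (13.0%) had an unadjusted p under 0.05 (edgeR), DESeq2 called 49 and limma-voom 23. From 10 CPM up, 53 of 251 were lower at an unadjusted p under 0.05 (edgeR). In the list, 6 of 18 (33.3%) had all EKO values below all WT values, against 17.7% of all tested miRNAs. Of miRNAs averaging at least 10 CPM 22.7% did, as did 26 of 74 in the low group by GC content. The lists here and below were not matched for level or GC content. The median log2 fold change of the list was -0.545, against -0.16 over all, -0.06 from 10 CPM up and -0.38 in the low group. Its most abundant member, let-7f-5p, was read at 120200, 127700 and 123200 CPM in the EKO and 135500, 124100 and 123500 CPM in the WT replicates, which overlapped. Its miR-30d-5p overlapped as well, at 34660 ± 3837 and 36650 ± 2514 CPM, and so did let-7a-5p, at 28560 ± 2071 and 33790 ± 2856 CPM (SD, n = 3 each). Of 11 tested miRNAs described to target Abca1, as miR-26 does, none passed with edgeR (5 had an unadjusted p under 0.05), 5 with DESeq2 and 3 with limma-voom. In this list 4 (36.4%) had all EKO values below and 2 (18.2%) all EKO values above the WT values, and the median was -0.492. The shares were 17.7% and 11.8% of all tested miRNAs, and 22.7% and 18.3% of those averaging at least 10 CPM. The most abundant, miR-148a-3p, stood on the side opposite to miR-26, with 137000, 112400 and 85930 CPM in the EKO against 62620, 65260 and 45640 CPM in the WT replicates (log2 fold change 0.98 ± 0.23, SE, adjusted p = 0.0767, edgeR). Next came miR-27b-3p, on the lower side, with means of 15860 ± 2348 (EKO) and 22740 ± 3407 CPM (WT), and miR-128-3p, on the higher side, with 5157 ± 448 and 4386 ± 103 CPM.

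None of the 4 tested references described to target Ezh2 passed with edgeR (0 at an unadjusted p under 0.05), DESeq2 or limma-voom, the genotypes overlapped in all 4, and their median was -0.05. The EKO and WT means of miR-101a-3p were 310 ± 26.8 and 322 ± 11.1 CPM, and those of miR-101b-3p 290 ± 19.3 and 314 ± 22.6 CPM (SD, n = 3 each). A joint entry of miR-101a-3p and miR-101c stood at 86.4 ± 16.6 and 102 ± 7.16 CPM. Of 23 tested miRNAs that, like miR-26, lie in introns of protein-coding genes, none passed with edgeR (9 had an unadjusted p under 0.05), 7 with DESeq2 and 4 with limma-voom. Over all 575 tested miRNAs, 21.4% had such an unadjusted p, and 92 passed with DESeq2 and 32 with limma-voom. Of the 23 intronic miRNAs, 9 (39.1%) had all EKO values below and 3 (13.0%) all EKO values above the WT values, and their median was -0.235. The shares were 17.7% and 11.8% of all tested miRNAs, and 22.7% and 18.3% of those averaging at least 10 CPM. The most abundant intronic miRNA, miR-151-3p of the Ptk2 intron, was among the 3 on the higher side, with 23310, 18800 and 13420 CPM in the EKO and 9998, 9435 and 6878 CPM in the WT replicates (log2 fold change 1.11 ± 0.25, SE, adjusted p = 0.0767, edgeR). The other two were the next most abundant, miR-25-3p of the Mcm7 intron, with means of 8282 ± 338 (EKO) and 7674 ± 213 CPM (WT), and miR-128-3p, given above.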

How the data were processed

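Small RNA from 3 EKO and 3 WT macrophage cultures was counted on mature miRNAs. Per the labels' protocols, total RNA was purified on RNeasy Mini columns, which can lose small RNA, and an NEB kit gave the small RNA libraries. The submitters' processing notes name mm9 as build, and no source used here names an aligner or counter. Per the file headers, the deposited tables hold an estimated count that divides reads matching several references, a total read count, a count of distinct read sequences and a barcode count, which was 0 throughout. The authors' estimated counts, rounded for the fits, were used; a missing reference was taken as 0.

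The whole table was fitted in edgeR 4.0.16 (R 4.3.3): TMM scaling, filterByExpr by genotype, the quasi-likelihood test and Benjamini-Hochberg adjustment over 575 miRNAs. The standard error is the fold change divided by the square root of F. CPM values are plain, without TMM, except in the correlations with the guides, which used log2 TMM-scaled CPM (prior count 2). Ratios were tested by exact permutation (scipy 1.17.1). DESeq2 1.42.0 and limma-voom (limma 3.58.1) were alternatives. For the GC offset, GC content came from RefSeq mature sequences by name (221 of 251 miRNAs, 88.0%; the others got the median), and each library's trend, a robust local regression, was removed. The fits were also run on simulated counts, whose planted changes were larger than those of the guides. Those counts held no trend with GC content or library diversity, so that check does not cover differences like those of the guides. P-values measure the spread between these libraries. The miRNAs named are the 5 members, the 3 most like each guide and the 3 most abundant of each list. Members and lists were chosen with earlier results of these data known.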

Additional observations from a re-analysis of the deposited data

How the results depend on the processing

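No miRNA passed in the edgeR fit of all libraries, but 92 did with DESeq2, 32 with limma-voom, 52 unfiltered, 43 when every library had to hold at least 10 reads, 59 with a mean of at least 10 CPM and 39 with the GC offset added to that filter. At an unadjusted p under 0.05 there were 123. Leaving out 1 library gave 0 to 45 calls (45 without EKO replicate 3, 0 for each other library), and 0 to 91 together with the filter on a mean of 10 CPM, a combination chosen after seeing the data (13, 1 and 91 when EKO replicate 1, 2 or 3 was left out, and 0 for each WT library). The cause of these differences was not tested. The log2 fold change of miR-26a-5p passed with DESeq2 (-0.59), no low-count filter (-0.64), the minimum of 10 reads per library (-0.62) and a mean of at least 10 CPM (-0.64). That of miR-26b-5p passed in the same settings (-0.87, -0.93, -0.91 and -0.93), with limma-voom (-0.98) and with the GC offset (-0.48). Leaving out 1 library gave -0.90 to -0.50 for miR-26a-5p and -1.23 to -0.78 for miR-26b-5p, and with the filter on a mean of 10 CPM -0.84 to -0.47 and -1.17 to -0.74. Size factors of DESeq2, upper-quartile factors, total counts, total read counts and leaving out the 3 most abundant miRNAs changed no call on a member. The 3p arms passed in no setting and kept their direction, except that none could be tested with a mean of at least 10 CPM, and miR-26b-3p and miR-26a-1-3p not with the minimum of 10 reads. The mir-26b arm ratio of EKO replicate 1, with 0 reads on the 3p arm, exists only with 0.5 added to each count, which took the log2 difference from 1.63 to 3.12, and leaving out 1 other library gave 0.05 to 3.21. Leaving out 1 library took the difference in the log2 arm ratio of mir-26a from -0.11 to 0.67. The family's share of reads differed by -0.384 percentage points (EKO minus WT), and by -0.921 once the 3 most abundant miRNAs were taken from the total.

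The lists had these calls with DESeq2, limma-voom and the filter on a mean of 10 CPM, in that order: 5 of 18, 2 of 18 and 6 of 14 in the list lowered by Myc, 5 of 11, 3 of 11 and 4 of 9 in the list targeting Abca1, and 7 of 23, 4 of 23 and 6 of 21 among intronic miRNAs. Over all tested miRNAs they were 92 of 575, 32 of 575 and 59 of 251, counting both directions. The calls in the list lowered by Myc were all lower, and over all tested miRNAs 49, 23 and 32 calls were lower.

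EKO and WT libraries shared replicate numbers, and no pairing is stated. Between EKO and WT libraries of equal number, deviations from the genotype mean had correlations of -0.10, -0.04 and -0.02, and each EKO library was closer to a WT library of another number. With 3 libraries per genotype, these correlations cannot settle whether libraries of equal number were paired. A fit with the replicate block called 62 miRNAs, among them miR-26a-5p (-0.69, adjusted p = 0.00116, edgeR) and miR-26b-5p (-0.98, adjusted p = 0.000208, edgeR). Levels below about 10 CPM rest on few distinct sequences, so direction and size are not resolved for miR-26b-3p and miR-26a-1-3p. The same limit holds for miR-26a-2-3p, with a mean of 6.78 CPM and 5, 10 and 3 distinct sequences in the EKO replicates. Its genotypes did not overlap, but it passed in no setting.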

Other observations

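The order of the libraries by the number of distinct read sequences, which miR-26a-5p followed, was followed exactly by 18 other tested miRNAs. Besides let-7g-5p and miR-20a-5p they include miR-17-5p, of the miR-17-92 cluster, miR-103-3p, of the Pank introns, miR-30c-5p, miR-221-3p, miR-23a-3p, miR-93-5p and both arms of mir-27b. These were named after their values were seen, and whether library diversity contributes to the levels was not tested.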
